A study of Homo sapiens with 18 samples.

Results

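Knockdown of MITD1 by small interfering RNA (siMITD1) was compared with its own control transfection (sicontrol_for_siMITD1) in 786-O cells, 3 RNA-seq libraries against 3. These are 6 of the 18 libraries of the series, and their levels stand in 1 table as FPKM, a read level scaled by gene length and library size. Taking the gene symbols with 1 FPKM or more in 3 or more of these 6 libraries left 10415 of the 29928 symbols listed; 11845 symbols were at 0 in all 6 libraries and 7668 were above 0 but under that minimum. 786-O is an established line of clear cell renal cell carcinoma that lacks functional VHL, the ubiquitin ligase subunit that marks the hypoxia-inducible factors for destruction, so the factor HIF2A is active in these cells at normal oxygen. All groups were grown in the same serum-containing medium, and the labels name no drug and no time after transfection; the other 12 libraries hold shRBCK1 with shcontrol and siANKRD35 with sicontrol_for_siANKRD35. The column names give 1 siRNA against MITD1. The sources used here do not give its sequence or that of the control, so effects of this siRNA and effects of losing MITD1 cannot be told apart. The labels do not say whether the 3 libraries of a group came from separate transfections, so the p-values rest on a spread between libraries that may be technical.

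MITD1 is a small protein whose MIT domain binds tails of the ESCRT-III proteins and whose other domain binds membrane. ESCRT-III filaments cut the last bridge between daughter cells at the end of cytokinesis (abscission), and MITD1 is known as a factor that keeps this step stable. The series title places MITD1 between ANKRD35 and ANXA1, downstream of the ubiquitin ligase RBCK1 and linked to the response to sunitinib, an inhibitor of receptor tyrosine kinases such as the VEGF and PDGF receptors. ANXA1 encodes annexin A1, a calcium-dependent membrane-binding protein that also signals through formyl peptide receptors.

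The targeted transcript was lower in each knockdown library. MITD1 was at 7.16, 7.42 and 7.83 FPKM in the controls and at 2.43, 2.66 and 3.03 FPKM after siMITD1, with no overlap. Mean levels were 7.47 ± 0.336 and 2.71 ± 0.303 FPKM (SD, n = 3 each), 63.7% lower, and the log2 difference, here and below on the log2(FPKM + 1) scale, was −1.19 (SE 0.069, limma adjusted p = 1.56e-06). These levels rest on 1411 reads in the control and 536 in the knockdown libraries. The exact permutation test of the FPKM values gave p = 0.1, the smallest that 3 against 3 allows.

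ANXA1, the last gene of the axis in the title, fell by a small amount. It was at 137, 129 and 138 FPKM in the controls and at 115, 113 and 116 FPKM in the knockdown, so all 3 knockdown libraries lay below all controls. The means were 134.6 ± 4.73 and 114.9 ± 1.47 FPKM (SD, n = 3 each), 14.6% lower (log2 difference −0.23, SE 0.030, limma adjusted p = 0.000217; exact permutation p = 0.1). FPR1, which encodes 1 of the formyl peptide receptors, fell from 4.14 ± 0.27 to 1.35 ± 0.333 FPKM (SD, n = 3 each, log2 difference −1.14, limma adjusted p = 2.21e-05). The other 2 formyl peptide receptor genes were under the minimum level.

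RBCK1, placed upstream of MITD1 in the title, rose. Its levels were 66.5, 65.2 and 64.7 FPKM in the controls and 91.8, 95.2 and 96.6 FPKM after siMITD1, 1.44 times the control mean (log2 difference 0.52, SE 0.029, limma adjusted p = 1.19e-06; exact permutation p = 0.1). ANKRD35 was at 0.0392 FPKM or less in each of the 6 libraries, under the minimum level, and its exact permutation p was 0.4. MITD1 knockdown libraries thus had a lower ANXA1 and a higher RBCK1 level, and ANKRD35 was too low to compare.

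**Figure D1:**
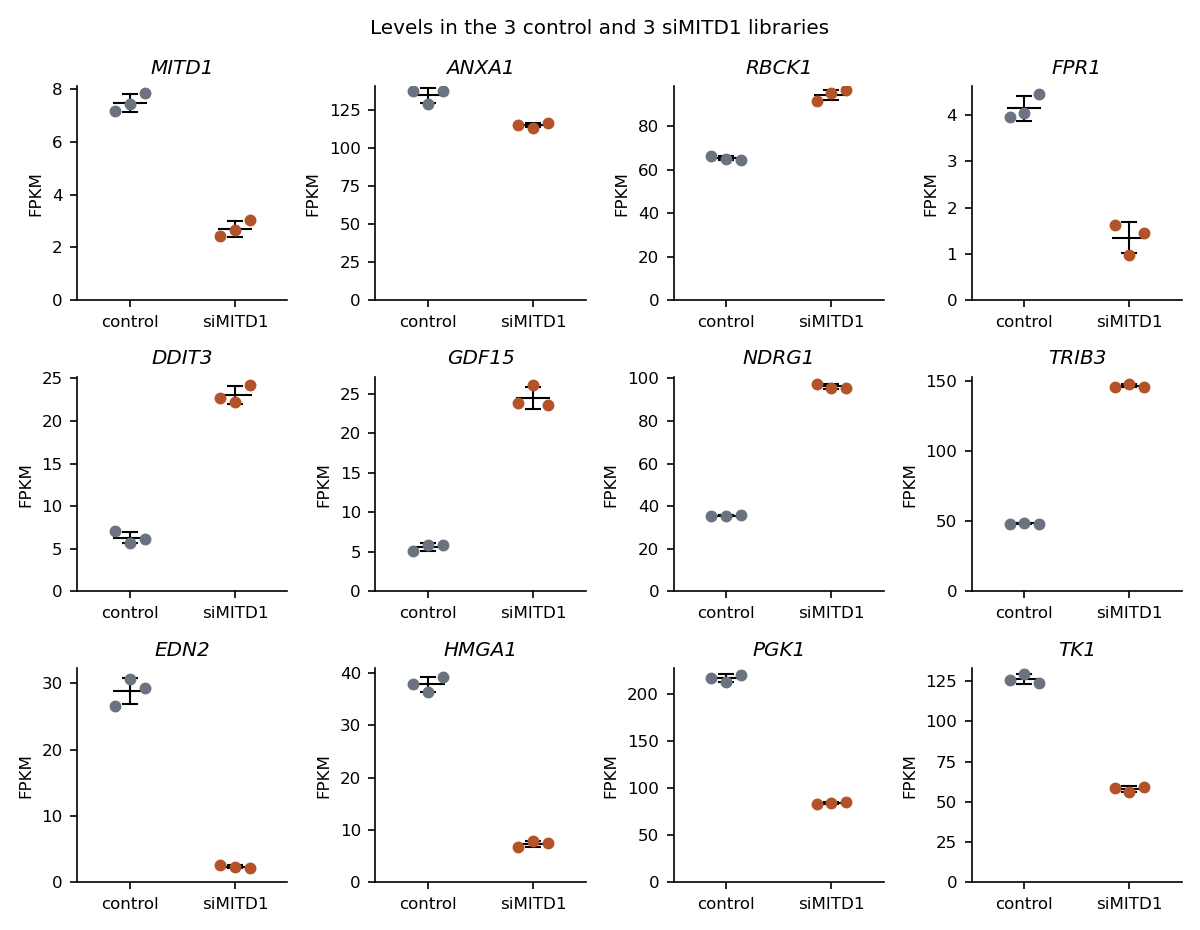
FPKM (vertical axes, from 0) of 12 genes in the 3 control (grey) and 3 siMITD1 (brown) libraries; points are libraries, bars the mean and SD. In each panel the groups do not overlap; ANXA1 moved from a mean of 134.6 to 114.9 FPKM, and EDN2 from 28.8 to 2.37 FPKM.

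The groups differed over most of the expressed genes, by mostly small amounts. Of the 10415 genes 6835 were called at a limma adjusted p under 0.05 (65.6%), 3124 higher (30%) and 3711 lower (35.6%), and at 7335 genes (70.4%) the 3 knockdown values lay wholly above or below the controls. The median absolute log2 difference of the called genes was 0.34, and 72.8% of them differed by less than 0.5. At least 2-fold differences, here and below on the log2(FPKM + 1) scale, were called for 96 genes higher (0.922%) and 137 lower (1.32%), 233 in all (2.24%). The median over all genes tested was −0.03. Libraries of a group correlated at 0.9942 to 0.9955 over the tested genes (Pearson's r of log2 values) and libraries of different groups at 0.9648 to 0.9672. Library sizes recovered from the values were 14176539 to 15489394 reads, and 10277 to 10351 genes per library reached 1 FPKM. No library stood apart from its group. The shares 30% and 35.6% are the background against which each gene list is read below.

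**Figure D2:**
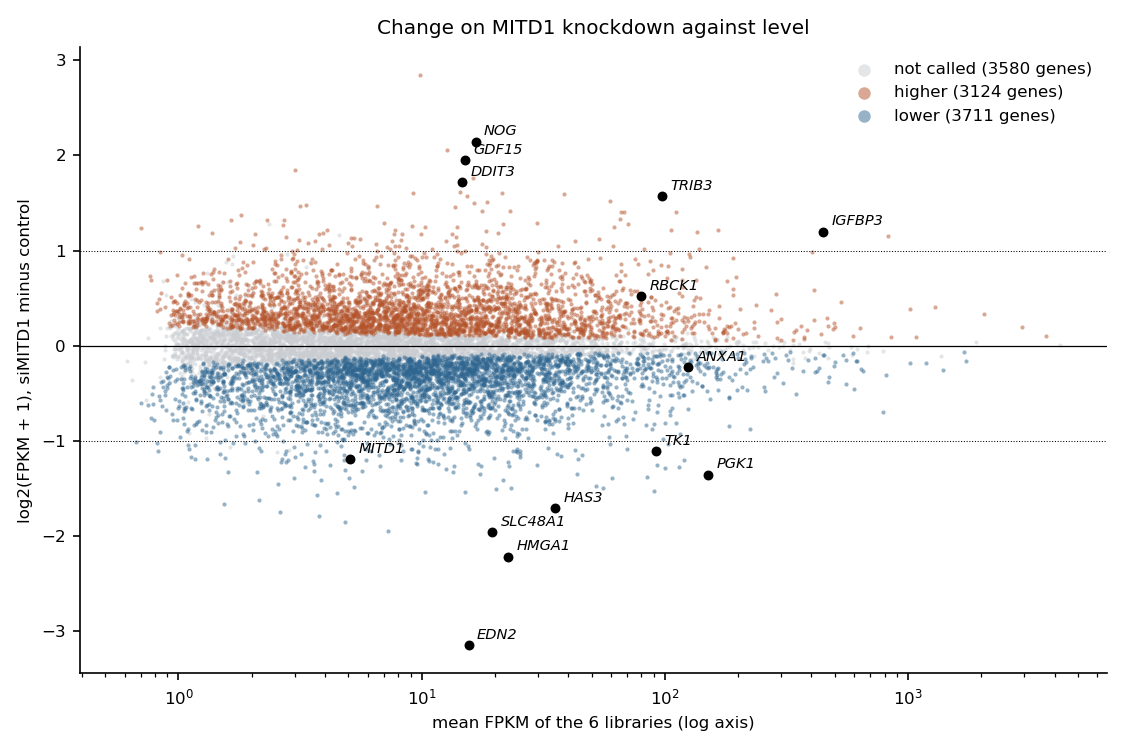
Log2(FPKM + 1) difference, siMITD1 minus control (vertical), against the mean FPKM of the 6 libraries (horizontal, log axis) for the 10415 genes tested; colours mark 3124 genes higher and 3711 lower, dotted lines a 2-fold difference. Most called genes lie between the dotted lines, EDN2 lies lowest at −3.14, and highly expressed genes such as IGFBP3 and PGK1 lie beyond them too.

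The 15 largest increases were taken among called genes with a mean of 5 FPKM or more in a group and groups apart. Clone, unnamed locus, antisense and pseudogene entries were left out, and LUCAT1 (log2 difference 2.05, described below) is not among the 15. The 15 included genes of secreted proteins. NOG, which encodes noggin, a secreted antagonist of bone morphogenetic proteins, was at 4.77, 6.38 and 5.47 FPKM in the controls and 27.2, 28.7 and 27.5 FPKM in the knockdown, 5.02 times the control mean (log2 difference 2.15, SE 0.080, limma adjusted p = 1.86e-07). GDF15, a secreted stress hormone of the TGF-beta superfamily, was at 5.07 to 5.90 FPKM in the controls and at 23.6 to 26.1 FPKM in the knockdown, 4.36 times the mean (log2 difference 1.95, limma adjusted p = 8.65e-08). INHBA, which encodes the activin A subunit, rose from 9.16 ± 0.39 to 27.9 ± 0.897 FPKM (SD, n = 3 each), and ADM2, a peptide hormone related to adrenomedullin, from 1.29 ± 0.114 to 5.43 ± 0.686 FPKM. All 4 encode secreted factors. Their groups did not overlap, which was a condition for being among the 15.

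Further large increases were in genes of stress signalling, translation control and scaffolding. DDIT3, PPP1R15A and TRIB3 are described with the ATF4 genes below. MKNK2, a kinase that phosphorylates the cap-binding factor eIF4E, rose from 30.2 ± 0.25 to 88.9 ± 1.44 FPKM (log2 difference 1.52, limma adjusted p = 7.07e-09), and AKAP12, a scaffold of protein kinase A, from 7.24 ± 0.0942 to 23.5 ± 1.16 FPKM (log2 difference 1.57). The long noncoding RNA NORAD, which binds Pumilio proteins, rose from 18.6 ± 0.738 to 58.2 ± 1.48 FPKM, TSC22D2 from 8.14 ± 0.55 to 24.8 ± 0.303 FPKM and C11orf86 by 1.62 on the log2 scale. The list of 15 largest increases also holds the small RNA genes RNU5A-1 (2.84), MIR4477B (1.76) and MIR3685 (3.53 times the control mean), and the decreases MIR635 (−1.79). FPKM of genes this short is unstable: RNU5A-1 ran from 0.608 to 3.64 FPKM across the controls and from 10.6 to 23.9 FPKM in the knockdown, and reads of a host gene cannot be told apart from it.

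The largest decrease among genes with a mean of 5 FPKM or more in a group was in EDN2, a vasoconstrictor peptide of the endothelin family. It was at 26.6, 30.6 and 29.3 FPKM in the controls and at 2.60, 2.30 and 2.21 FPKM in the knockdown, 91.8% lower (log2 difference −3.14, SE 0.064, limma adjusted p = 1.02e-08). HMGA1, an architectural chromatin protein that is high in many carcinomas, fell from 38.0, 36.4 and 39.3 FPKM to 6.75, 7.85 and 7.54 FPKM (log2 difference −2.22, SE 0.055, limma adjusted p = 2.64e-08). At both genes the 3 knockdown libraries lay far below all controls. HMGA1 has processed pseudogenes, as PGK1 and ENO1 below do, and the sources used here do not say how reads shared between copies were counted.

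The remaining decreases joined membrane, matrix and regulatory genes. HAS3, a hyaluronan synthase, fell from 54.8 ± 0.324 to 16.1 ± 0.319 FPKM (SD, n = 3 each; log2 difference −1.71, limma adjusted p = 7.07e-09). SLC48A1, a heme transporter of endosomes and lysosomes, fell by 1.96 on the log2 scale, the adhesion receptor gene ADGRB2 by 1.86 and TAGLN3, a calponin-family gene, by 1.95. SUMO3, a ubiquitin-like modifier, fell from 82.5 ± 2.09 to 28.7 ± 0.887 FPKM and TXNIP, an arrestin-like inhibitor of glucose uptake, from 15.9 ± 0.488 to 4.83 ± 0.457 FPKM. ID3, which blocks basic helix-loop-helix factors and is a known target of bone morphogenetic proteins, fell by 1.49 and its relative ID2 by 1.26. TCTN3, a ciliary protein gene, fell by 1.53, TP53INP2 by 1.55 and PHOSPHO1 by 1.56, and AMBP, of a plasma glycoprotein, from 30.3 ± 1.26 to 10.1 ± 0.78 FPKM.

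The partners of MITD1 in abscission moved little and in both directions. Of 30 tested members of the ESCRT-III and abscission list 7 were higher (23.3%), 6 lower (20%) and 17 not called, with a median log2 difference of 0.00. CHMP1A, an ESCRT-III subunit, fell from 66.5 ± 1.49 to 45.8 ± 0.541 FPKM (SD, n = 3 each; log2 difference −0.53, limma adjusted p = 1.11e-06) and CHMP6 from 16.3 ± 1.07 to 10.4 ± 0.642 FPKM (−0.61). CHMP1B, a close relative of CHMP1A, rose from 7.13 ± 0.299 to 11.5 ± 0.283 FPKM (0.62), CHMP3 by 0.48 and VPS4A, the ATPase that takes the filaments apart, by 0.53. CHMP2A, CHMP4B, CHMP5 and VPS4B were not called, with log2 differences of 0.06, −0.02, 0.01 and −0.02; without siMITD1 library 1 CHMP2A was called higher (0.14, limma adjusted p = 0.0154). Both shares called lay below those of all genes tested, and no member changed 2-fold.

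Proteins with a MIT domain form a short list. Of 11 tested members, MITD1 itself included, 5 were lower (45.5%) and 3 higher (27.3%), with a median of −0.20; with the siRNA target among the 5, these shares are near those of all genes and are no result about the list. SPAST, the microtubule-severing ATPase spastin, was at 5.14, 3.65 and 4.44 FPKM in the controls and at 1.79, 1.60 and 1.37 FPKM in the knockdown (log2 difference −1.06, limma adjusted p = 3.8e-05), the one member besides MITD1 that fell at least 2-fold on that scale. The protease gene CAPN7 fell by 0.52 on the log2 scale, STAMBP, a deubiquitinase that binds ESCRT-III, rose by 0.50 and RPS6KC1 by 0.56. Among 19 tested genes of the furrow and midbody 7 were higher and 4 lower (median 0.07): ANLN, which encodes the scaffold anillin, fell from 81.6 ± 1.54 to 47.3 ± 1.21 FPKM (−0.78), and ARHGEF2, an activator of RhoA, rose from 10.7 ± 0.203 to 20 ± 0.388 FPKM (0.84).

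ANXA1 was the only one of 8 tested annexins that was called lower in this comparison. ANXA6 rose from 66.8 ± 1.19 to 92.4 ± 3.04 FPKM (log2 difference 0.46, limma adjusted p = 3.94e-06), ANXA7 from 44.2 ± 2.05 to 63.3 ± 0.654 FPKM (0.51) and ANXA3 by 0.17. ANXA5 rose by 0.08, with a limma adjusted p of 0.0151 that became 0.0605 without control library 3. ANXA2, the most abundant annexin at 307.6 ± 1.83 and 306.7 ± 0.623 FPKM, was not called (log2 difference −0.00, SE 0.019), nor were ANXA4 (0.09, limma adjusted p = 0.0897; 0.024 to 0.0333 in the 3 alternatives that called it higher) and ANXA11 (−0.05). The family therefore did not follow ANXA1: 4 of 8 were higher (50%).

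Genes of the ATF4 program rose together more than those of any other list with at least 10 tested members. ATF4 is the transcription factor made when translation is restrained by phosphorylation of eIF2-alpha, and it turns on amino acid transporters, amino acid synthesis enzymes and, through DDIT3 (CHOP), genes that restart translation or lead to cell death. Of 29 tested members 25 were higher (86.2%) and 3 lower (10.3%), against 30% and 35.6% of all genes tested, with a median log2 difference of 0.50 beside −0.03. In all, 7 members rose at least 2-fold.

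The regulators of that list had the largest differences. DDIT3 was at 7.08, 5.71 and 6.17 FPKM in the controls and at 22.6, 22.2 and 24.2 FPKM in the knockdown, 3.64 times the control mean (log2 difference 1.72, SE 0.069, limma adjusted p = 2.48e-07). PPP1R15A, the phosphatase subunit that reverses eIF2-alpha phosphorylation, rose from 10.1 ± 0.386 to 32.8 ± 1.72 FPKM, 3.24 times the control mean, and TRIB3, a pseudokinase induced by ATF4 and CHOP, from 48.5 ± 0.391 to 146.6 ± 1.14 FPKM (1.58). ATF4 transcript itself rose less, from 202 ± 4.29 to 273 ± 2.82 FPKM (0.43), and ATF3 (1.08), CEBPB (0.68), CEBPG (0.69) and NUPR1 (1.03) rose as well. DDIT4, which restrains mTORC1, went from 269.6 ± 13.6 to 534.7 ± 17.1 FPKM (0.99) and SESN2, a leucine sensor, from 12.1 ± 1.16 to 21.7 ± 0.414 FPKM (0.79).

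Transporters and enzymes of the same list rose as well. SLC1A5, a glutamine transporter, was at 93.8, 94.0 and 91.7 FPKM in the controls and at 143.5, 144.9 and 143.4 FPKM in the knockdown (log2 difference 0.62, limma adjusted p = 1.86e-07). SLC7A11, the cystine transporter, rose from 4.90 ± 0.262 to 11.2 ± 0.608 FPKM (1.05), and CTH, which makes cysteine from cystathionine, from 4.29 ± 0.239 to 11.3 ± 0.192 FPKM (1.22). PSAT1 of serine synthesis (0.48) and MTHFD2 of mitochondrial folate metabolism (0.50) rose too. The 3 members that were lower were ATF5 (−0.45), ALDH18A1 of proline synthesis (−0.33) and PSPH, the last enzyme of serine synthesis (−0.16).

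Chaperones of the endoplasmic reticulum rose by less. Of 23 tested members of that list 15 were higher (65.2%) and 3 lower (13%), with a median of 0.19 and no member at 2-fold. HSPA5, which encodes the chaperone BiP, was at 329.7, 326.2 and 327.3 FPKM in the controls and at 494.7, 491.9 and 491.1 FPKM in the knockdown (log2 difference 0.59, limma adjusted p = 9.19e-08). CALR rose by 0.46, HERPUD1, of degradation from the reticulum, by 0.50 and CRELD2 by 0.58, while CANX, the membrane-bound relative of CALR, fell by 0.48. Heat shock genes of the cytosol did not share this direction: of 17 tested, 7 were higher and 7 lower.

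**Figure D3:**
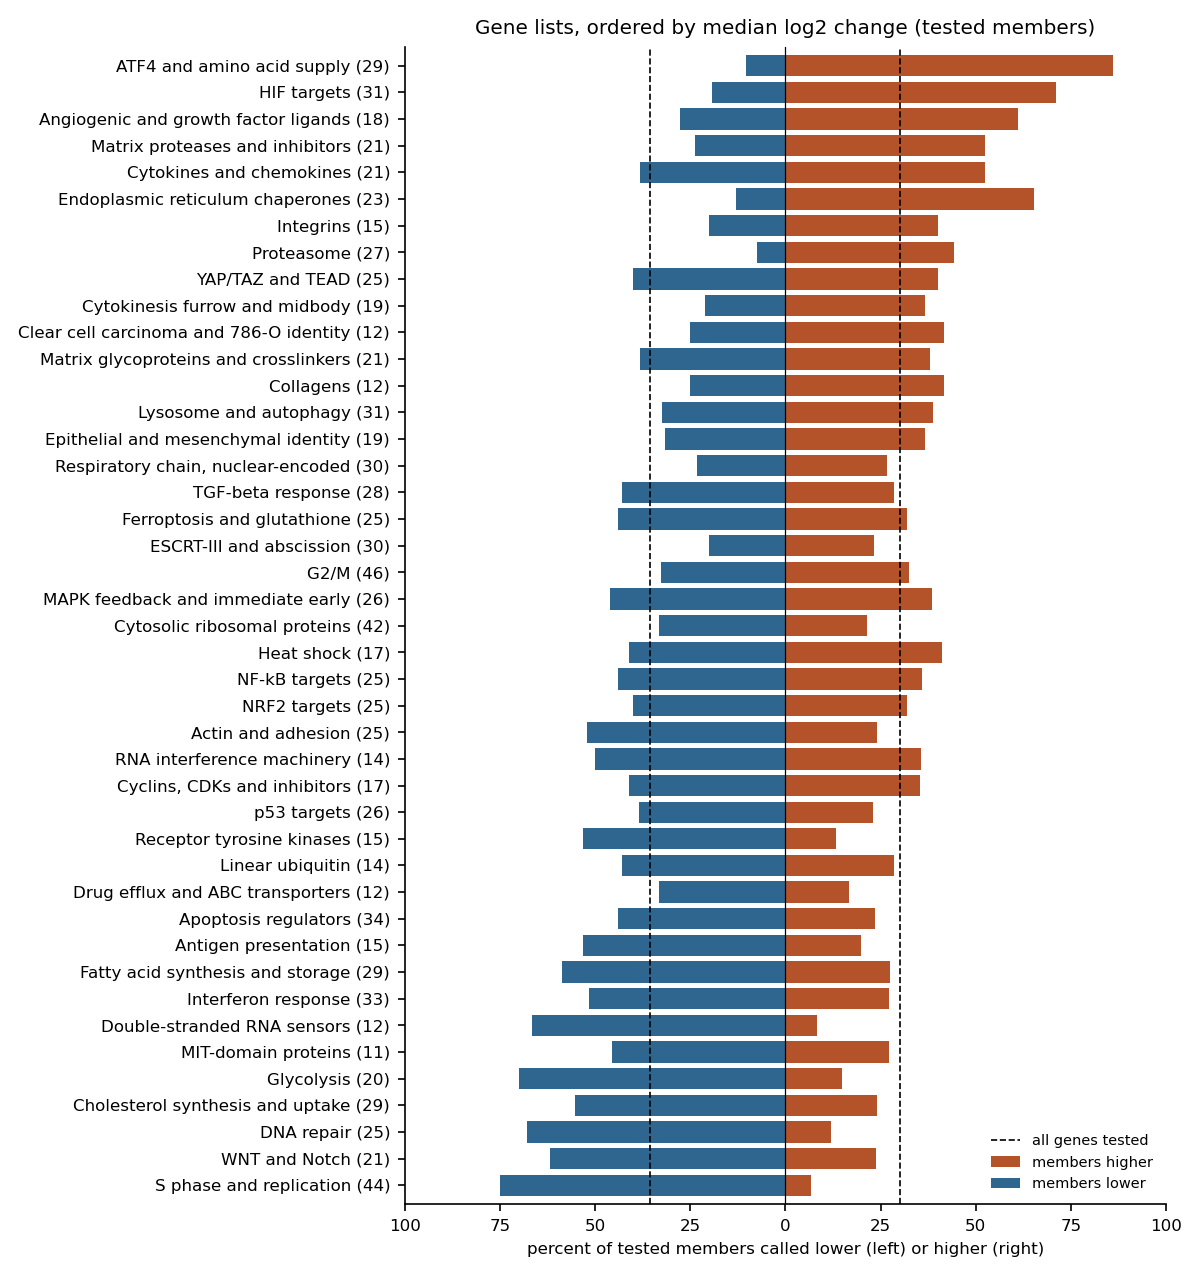
Percent of tested members called higher (right, brown) or lower (left, blue) for the lists with at least 10 tested members (their number in brackets), ordered by median log2 difference; dashed lines give all genes tested, 30% higher and 35.6% lower. The ATF4 list stands at one end with 86.2% higher and the S phase list at the other with 75% lower, while lists such as G2/M lie near the dashed lines.

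Listed targets of the hypoxia-inducible factors rose for the most part, and the labels name no hypoxia. The list leaves out PGK1, LDHA, ENO1 and HK2, which are counted with glycolysis below. PGK1, LDHA and ENO1 fell and HK2 rose. Of 31 tested 22 were higher (71%) and 6 lower (19.4%), with a median of 0.36, and 4 rose at least 2-fold. NDRG1, a stress-responsive gene, was at 35.6, 35.5 and 35.8 FPKM in the controls and at 97.6, 95.6 and 95.7 FPKM in the knockdown (log2 difference 1.41, SE 0.025, limma adjusted p = 7.07e-09). VEGFA, the main angiogenic ligand of clear cell carcinoma, rose from 39.6 ± 0.399 to 82.8 ± 1.63 FPKM (1.05) and ADM, a vasodilator peptide, from 33.4 ± 1.27 to 73.9 ± 3.14 FPKM (1.12). The collagen-modifying enzymes PLOD2 (0.97), P4HA1 (0.83) and P4HA2 (0.82) rose as well. EPAS1, the gene of HIF2A, rose from 38.7 ± 0.368 to 61.3 ± 2 FPKM (0.65).

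The HIF targets that fell included a main HIF2A target and glucose genes. CCND1, the cyclin D1 gene that HIF2A drives in clear cell carcinoma, was at 233.2, 233.4 and 237.0 FPKM in the controls and at 132.7, 128.4 and 131.1 FPKM in the knockdown (log2 difference −0.84, limma adjusted p = 4.57e-08). SLC2A1, the glucose transporter GLUT1, fell by 0.39 and PDK1, which holds pyruvate out of the mitochondrion, by 0.22. The list thus held members that moved in opposite directions, and its name does not describe all of them.

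Genes of the glycolysis list, many of them also known as HIF targets though not all counted in the HIF list, were lower for the most part. Beside enzymes the list holds TXNIP (−1.54), described above, and the exporter SLC16A3. Of 20 tested members 14 were lower (70%) and 3 higher (15%), with a median of −0.20; 9 were lower with voom on recovered reads, where some of the genes could not be recovered. PGK1 was at 217.3, 212.7 and 220.9 FPKM in the controls and at 83.1, 83.9 and 85.6 FPKM in the knockdown, 61.2% lower (log2 difference −1.36, SE 0.025, limma adjusted p = 8.27e-09). PKM, which makes pyruvate, fell from 975.7 ± 16.9 to 602.2 ± 10.2 FPKM (−0.70), LDHB from 17.3 ± 0.864 to 7.35 ± 0.801 FPKM (−1.14) and SLC16A3, the lactate exporter, from 79.5 ± 3.25 to 52.1 ± 2.19 FPKM (−0.60). ENO1 (−0.25) and LDHA (−0.23) fell by less, and HK2 (0.51) and PFKL (0.40), which act at the entry of the pathway, rose. PGD, of the pentose phosphate pathway, fell by 0.50.

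Secreted ligands for blood vessels and for the EGF receptor family rose more often than they fell. Of 18 tested 11 were higher (61.1%) and 5 lower (27.8%), with a median of 0.28. Ligands of the EGF receptor were prominent: HBEGF rose from 11.1 ± 0.472 to 24.3 ± 0.52 FPKM (log2 difference 1.07, limma adjusted p = 2.02e-07), EREG from 24.3 ± 0.301 to 45.7 ± 1.59 FPKM (0.88), TGFA by 0.70 and AREG by 0.71. EDN1, of another endothelin, rose from 6.89 ± 0.806 to 14.02 ± 0.0649 FPKM (0.93), opposite to EDN2. PGF (−0.70) and FGF2 (−0.54) fell.

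The receptor for these EGF-family ligands was itself lower. EGFR was at 33.7, 33.1 and 34.1 FPKM in the controls and at 17.9, 17.7 and 18.2 FPKM in the knockdown (log2 difference −0.87, SE 0.031, limma adjusted p = 1.43e-07), and ERRFI1, a feedback inhibitor that binds the EGF receptor, rose from 98.95 ± 2.15 to 231.6 ± 0.348 FPKM (1.22, limma adjusted p = 1e-08). Of 15 receptor tyrosine kinases tested 8 were lower (53.3%) and 2 higher, the latter 1 under several of the alternatives. ROR1 fell by 0.86, EPHA2 by 0.57 and FGFR1 by 0.56; 13 further receptors of the list, which holds the targets of sunitinib, were under the minimum level. Among genes of MAPK feedback and the immediate early response the shares were near those of all genes, 10 higher and 12 lower of 26, with FOSL1 lower (130.9 ± 5.21 to 65.9 ± 2.70 FPKM, −0.98) and KLF6 (0.73) and IER3 (0.58) higher.

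Genes of S phase fell together. These genes license replication origins, unwind and copy DNA and supply nucleotides, and many are known targets of E2F factors. In bulk libraries, here and for the other lists, fewer cells of a type (such as cells in S phase) and less RNA per cell cannot be told apart. All 44 members of the list were tested, 33 were lower (75%, beside 35.6% of all genes tested) and 3 higher (6.82%), with a median of −0.38. TK1, thymidine kinase, was at 126.0, 129.5 and 123.6 FPKM in the controls and at 58.8, 56.2 and 59.1 FPKM in the knockdown (log2 difference −1.11, SE 0.031, limma adjusted p = 4.57e-08). It was the one member at 2-fold on that scale; E2F2 and CCNE2, at low levels, were 58.4% and 52.5% lower in FPKM. The 6 subunits of the MCM2-7 helicase all fell, MCM4 most (70.7 ± 1.79 to 41.9 ± 0.921 FPKM, −0.74), then MCM2 (−0.52), MCM5 (−0.49), MCM7 (−0.48), MCM3 (−0.45) and MCM6 (−0.36). FEN1, the flap endonuclease, fell from 43.5 ± 1.43 to 26.1 ± 0.706 FPKM (−0.72), the loading factor CDC6 by 0.80, DUT, which removes dUTP, by 0.76 and PCNA, the sliding clamp, by 0.48.

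Regulators of S phase entry were not uniform. E2F2 fell by 0.87 and CCNE2, of cyclin E, by 0.74, whereas E2F1 rose from 22.6 ± 0.259 to 30.7 ± 0.392 FPKM (log2 difference 0.42, limma adjusted p = 4.98e-06); RRM1, of ribonucleotide reductase, rose by 0.18. E2F4, a repressing E2F, fell from 41.0 ± 0.594 to 23.3 ± 0.95 FPKM (−0.79) and CDK6 rose by 0.62. DNA repair genes, many of them also active in S phase, were lower in 17 of 25 (68%) and higher in 3 (12%), with a median of −0.28. RAD51AP1, of homologous recombination, fell from 21.3 ± 0.859 to 9.79 ± 0.798 FPKM (−1.05) and CLSPN, the checkpoint mediator claspin, from 14.4 ± 0.208 to 7.06 ± 0.322 FPKM (−0.93), while ATM, the checkpoint kinase, rose by 0.38. Genes of G2 and mitosis divided evenly, 15 higher and 15 lower of 46 tested (32.6% each, median −0.02): CENPF rose by 0.45 and CCNB2 by 0.40, CDC20 fell by 0.47 and KIF18B by 0.64.

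Promoters of the S phase genes often held a consensus word of E2F factors, TTTCCCGC on either strand. Among RefSeq promoters (250 bases before to 50 after the gene start, GRCh38.p14; 8348 of the genes tested matched) 10 of 38 of the S phase list held it (26.3%), beside 2.79% of all, 3.66% of the promoters of genes called lower and 1.93% of those called higher. These members are shown because they fell and carry the word within that window; capitals mark the word, and GCGGGAAA is its reverse complement.
PCNA (chr20:5126664-5126691, minus strand): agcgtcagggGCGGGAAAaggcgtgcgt
UHRF1 (chr19:4909477-4909504, plus strand): ccgagttttcGCGGGAAAaaaatcagag
CDT1 (chr16:88803744-88803771, plus strand): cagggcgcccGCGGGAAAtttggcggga
MCM3 (chr6:52284899-52284926, minus strand): ggatggtacgTTTCCCGCcaccgcgggg
The log2 differences were −0.48 for PCNA, −0.52 for UHRF1, a chromatin factor of replicating cells, −0.42 for CDT1, which loads the helicase, and −0.45 for MCM3. A match is a description of these letters and not a measured binding site.

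Genes of cholesterol synthesis and uptake were lower more often than higher. Of 29 tested genes 16 were lower (55.2%) and 7 higher (24.1%; 4 without control library 3), with a median of −0.27. MSMO1, a sterol oxidase, fell from 80.0 ± 0.204 to 38.7 ± 2.30 FPKM (SD, n = 3 each; log2 difference −1.03), DHCR7, of the last step, from 105.3 ± 1.26 to 65.9 ± 0.202 FPKM (−0.67), IDI1 by 0.61 and HMGCS1 by 0.57. PMVK, phosphomevalonate kinase, rose by 0.60. Fatty acid genes were lower in 17 of 29 (58.6%): ACLY fell from 132.9 ± 1.88 to 98.0 ± 1.99 FPKM (−0.44), AGPAT2 by 0.70 and FADS2, a desaturase, by 0.49.

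Interferon response genes were lower somewhat more often than the background. Of 33 tested 17 were lower (51.5%) and 9 higher (27.3%; 5 without control library 3), with a median of −0.18. OASL fell from 7.71 ± 0.129 to 2.35 ± 0.494 FPKM (log2 difference −1.39, limma adjusted p = 4.1e-06), IFIT1 by 0.71, USP18 by 0.59, IRF1 by 0.55 and ISG15 by 0.53. Sensors of double-stranded RNA were lower in 8 of 12 (66.7%), among them EIF2AK2 (PKR; −0.37), IRF3 (−0.41), PRKRA (−0.40) and IKBKE (−0.62).

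Signalling lists moved in part. WNT and Notch genes were lower in 13 of 21 (61.9%), with LGR4 (−0.85), WNT7B (−0.66) and DKK3 (−0.42) lower and the Notch ligand JAG1 (0.59) higher; 8 were lower among members that reached 5 FPKM. Targets of YAP and TEAD were split, 10 higher and 10 lower of 25: IGFBP3, which binds insulin-like growth factors, rose from 270.4 ± 0.797 to 622.1 ± 11.2 FPKM (log2 difference 1.20, limma adjusted p = 7.07e-09) and F3, tissue factor, from 7.77 ± 0.575 to 18.8 ± 0.402 FPKM (1.17), while WWTR1, the gene of TAZ, fell by 0.76. TGF-beta response genes were 8 higher and 12 lower of 28, with FSTL1, a secreted glycoprotein, at 121.5, 123.2 and 122.6 FPKM in the controls and 46.7, 46.0 and 47.0 FPKM in the knockdown (−1.38, limma adjusted p = 7.07e-09). Among ferroptosis genes 8 were higher and 11 lower of 25: SLC7A11 rose, as did TFRC, the transferrin receptor (0.86), whereas GCH1, of tetrahydrobiopterin synthesis, fell from 5.38 ± 0.362 to 1.76 ± 0.0747 FPKM (−1.21), GCLM by 0.44 and GPX4, which reduces lipid peroxides, by 0.44.

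In other lists the shares lay near those of all genes, so that their counts are no result about the list. NF-kB targets were 9 higher and 11 lower of 25, with ICAM1 (26.95 ± 0.83 to 58.8 ± 0.991 FPKM, 1.10) and CXCL8 (0.95) higher and BIRC3 (−0.83) lower. Targets of p53 were 6 higher and 10 lower of 26, those of NRF2 8 and 10 of 25, genes of the nuclear-encoded respiratory chain 8 and 7 of 30, cytosolic ribosomal proteins 9 and 14 of 42, and apoptosis regulators 8 and 15 of 34. Within the last list BAK1, a pore-forming killer protein, fell from 35.3 ± 1.19 to 15.5 ± 0.978 FPKM (log2 difference −1.14) and the survival gene BCL2L2 rose by 0.93.

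Next to the other knockdowns of the series, siMITD1 had lower S phase and glycolysis genes and higher ATF4 genes. Differences of knockdown minus own control were contrasted in limma over the 18 libraries for 9257 genes tested in all 3 tables; 27.3% of these genes lay above and 35.3% below siANKRD35, and 24.5% above and 27.2% below shRBCK1. Of 43 S phase genes 36 lay below siANKRD35 (83.7%) and 29 below shRBCK1 (67.4%), and their medians were −0.36 for siMITD1, 0.21 for siANKRD35 and 0.15 for shRBCK1. TK1 was −1.11 in siMITD1, 0.48 in siANKRD35 and −0.04 in shRBCK1 (limma adjusted p of the differences 2.54e-09 and 2.15e-07). MCM4 was −0.74, 0.07 and 0.23 (1.57e-08 and 1.89e-09).

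The median of the ATF4 list was instead highest in siMITD1. Of 29 genes 21 lay above siANKRD35 (72.4%) and 22 above shRBCK1 (75.9%), with medians of 0.50, −0.15 and −0.55. DDIT3 was 1.72 in siMITD1, −0.07 in siANKRD35 and −1.51 in shRBCK1, and TRIB3 1.58, 0.08 and −0.63 (limma adjusted p of each difference 6.45e-10 or less). DDIT4 was an exception: it was 0.99 in siMITD1 and 1.10 in siANKRD35, a difference that was not called (−0.11, SE 0.227, adjusted p = 0.679). Chaperones of the endoplasmic reticulum lay above siANKRD35 in 16 of 23 and above shRBCK1 in 12 of 23. Of 19 glycolysis genes 13 lay below siANKRD35 (68.4%) and 8 below shRBCK1 (42.1%), with medians of −0.17, 0.28 and −0.03. A share below siANKRD35 also counts genes that rose in siANKRD35. Respiratory chain genes lay below it in 86.7% with medians of 0.01 in siMITD1 and 0.53 in siANKRD35. Cytosolic ribosomal protein genes did so in 83.3% (−0.03 and 0.50). Below shRBCK1 these 2 shares were 26.7% and 9.52%.

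Single genes differed in the same contrasts. PGK1 was −1.36 in siMITD1, 0.57 in siANKRD35 and 0.06 in shRBCK1, and HMGA1 −2.22, 0.93 and −0.11, each with both differences called. VEGFA, at 1.05 in siMITD1 and 0.01 in siANKRD35, was also up in shRBCK1 (0.90), and the difference from shRBCK1 was not called (0.15, SE 0.105, adjusted p = 0.255). ANXA1 was −0.23 in siMITD1, 0.28 in siANKRD35 and −0.36 in shRBCK1: siMITD1 differed from siANKRD35 (adjusted p = 0.00102) and not detectably from shRBCK1 (difference 0.14, SE 0.113, adjusted p = 0.321). MITD1 itself was 0.33 in siANKRD35 and −0.04 in shRBCK1. By the sample titles the shRBCK1 arm used another kind of reagent. For the ANKRD35 knockdown the titles read siANKRD35 but the column names read ShRNA, so its reagent is not certain. The tables were also normalized separately, so batch, reagent and target cannot be told apart in these contrasts.

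**Figure D4:**
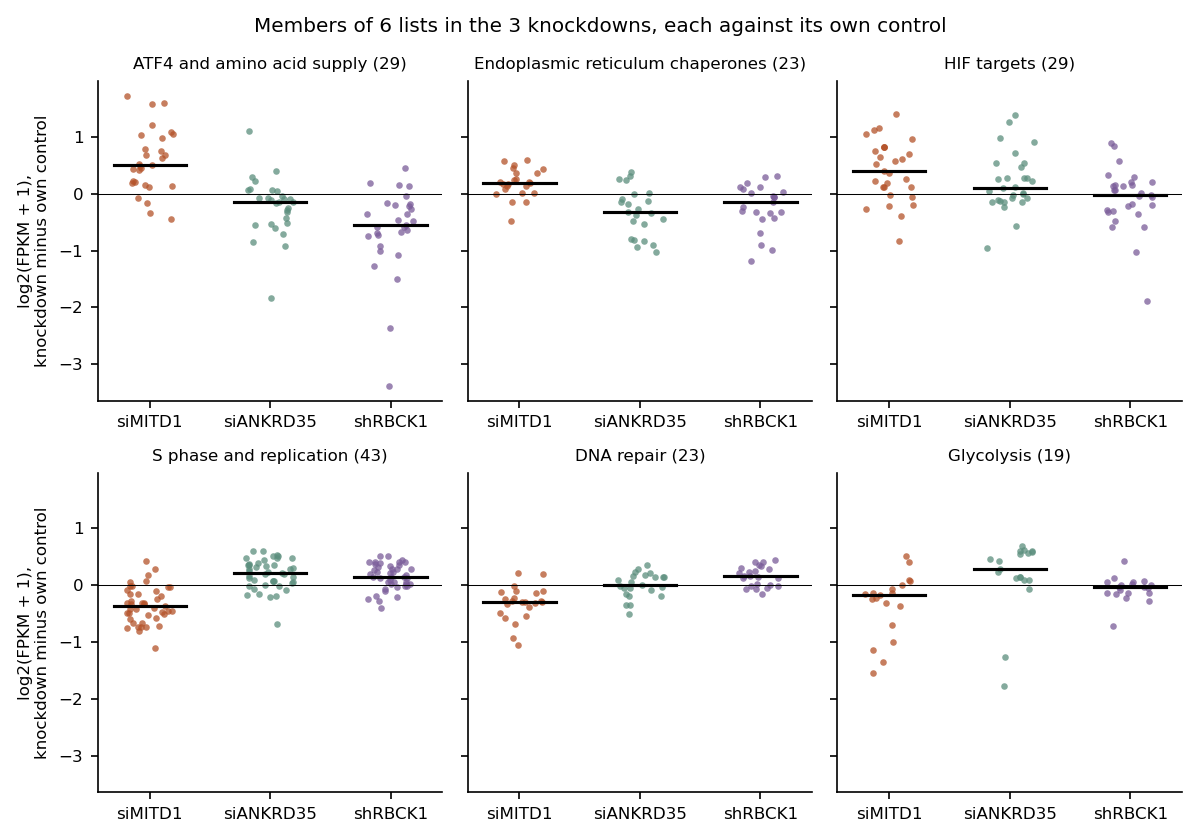
Log2(FPKM + 1) difference of each knockdown from its own control (vertical) for the members of 6 lists measured in all 3 tables; points are genes, spread sideways at random, and bars medians. The S phase median is −0.36 in siMITD1 beside 0.21 and 0.15, and the ATF4 median 0.50 beside −0.15 and −0.55.

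Short words in the 3′ untranslated regions (3′ UTRs) were also read against the differences. A small interfering RNA pairs with its target over its full length, and bases near its 5′ end (the seed) can pair with other transcripts as a microRNA does, mostly in the 3′ UTR. Of 16078 words of 7 letters ranked over 9939 genes, TTCTTCA and TCTTCAA, which overlap in TTCTTCAA, stood lowest, and GGAGAAA and CGGAGAA, which overlap in CGGAGAAA, highest. The words were picked for these values, so the counts that follow describe them and carry no test.

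Genes with TTCTTCAA in the 3′ UTR numbered 554. Their median log2 difference was −0.098 beside −0.028 for the rest, 45.3% were called lower beside 36.2%, and 19 (3.43%) were at least 2-fold lower beside 1.2%. Genes with either 7-letter part numbered 2483, and 62 of them (2.5%) fell at least 2-fold, beside 70 of the other 7456 (0.939%). The 75 genes with CGGAGAAA had a median of 0.227 beside −0.033, and 61.3% were called higher beside 29.6%. In the other tables the median of genes with TTCTTCAA was −0.063 in siANKRD35 (0.039 without) and 0.041 in shRBCK1 (−0.001 without), and that of CGGAGAAA genes was −0.054 and 0.018. In the coding sequence and not in the 3′ UTR, TTCTTCAA was in 746 genes, with a median of −0.093. Of these 44.1% were called lower beside 36.2% of the rest, and 1.88% were at least 2-fold lower beside 1.28%. CGGAGAAA was in the coding sequence only of 262 genes, with a median of 0.089 and 43.9% called higher beside 29.5%. Shifts in these directions were thus not particular to the 3′ UTR. TTCTTCAA also occurred once in the MITD1 transcript, in its coding part, and not in its 3′ UTR.

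The sites with TTCTTCAA are shown for MITD1 and for genes described above that fell 2-fold or more, and one site with CGGAGAAA for a gene that rose (GENCODE 29 transcripts, GRCh38; capitals mark the word, and each site but that of MITD1 lies in the 3′ UTR).
MITD1 (chr2:99170546-99170573, minus strand, coding): ttcaatactcTTCTTCAAtacatgaccg
HAS3 (chr16:69116187-69116214, plus strand): ccacttcactTTCTTCAAagccacattt
FSTL1 (chr3:120396245-120396272, minus strand): gttgactttaTTCTTCAAttattatcat
PGK1 (chrX:78126011-78126038, plus strand): tttgcatacaTTCTTCAAgatcccattt
LDHB (chr12:21635426-21635453, minus strand): tgctttgatcTTCTTCAAtatgtgaatt
ME1 (chr6:83211643-83211670, minus strand, holding CGGAGAAA): gtacgtactaCGGAGAAActcatcattt
ME1, malic enzyme, rose from 20.6 ± 0.0626 to 38.9 ± 0.383 FPKM (log2 difference 0.89). Whether either siRNA holds the complement of these words was not tested, since the sources used here do not give their sequences, and a match is a description of letters.

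A minority of the 15 largest changes each way held these words. In the larger set at least 2-fold lower 62 held a 7-letter part of TTCTTCAA and 70 did not. Among all genes with a 3′ UTR these numbers were 2483 and 7456. Of the 15 largest decreases 14 had a 3′ UTR and 3 held a 7-letter part of TTCTTCAA (TAGLN3, HAS3 and TP53INP2; 21.4%), beside 25% of all genes with a 3′ UTR; EDN2 and HMGA1 did not. The word was picked from these same differences, so the counts here describe it and carry no test. An effect of the siRNA itself on the lists was not tested. Without the genes that held a 7-letter part, the S phase list was 29 lower and 3 higher of 38 and the ATF4 list 21 higher and 2 lower of 23. The HIF list was then 17 higher and 2 lower of 21 and the cholesterol list 10 lower and 6 higher of 21 with a median of −0.10. ANXA1 itself holds a 7-letter part in its 3′ UTR, as do MSMO1, EGFR, CCND1, TK1, SPAST and PAX8.

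**Figure D5:**
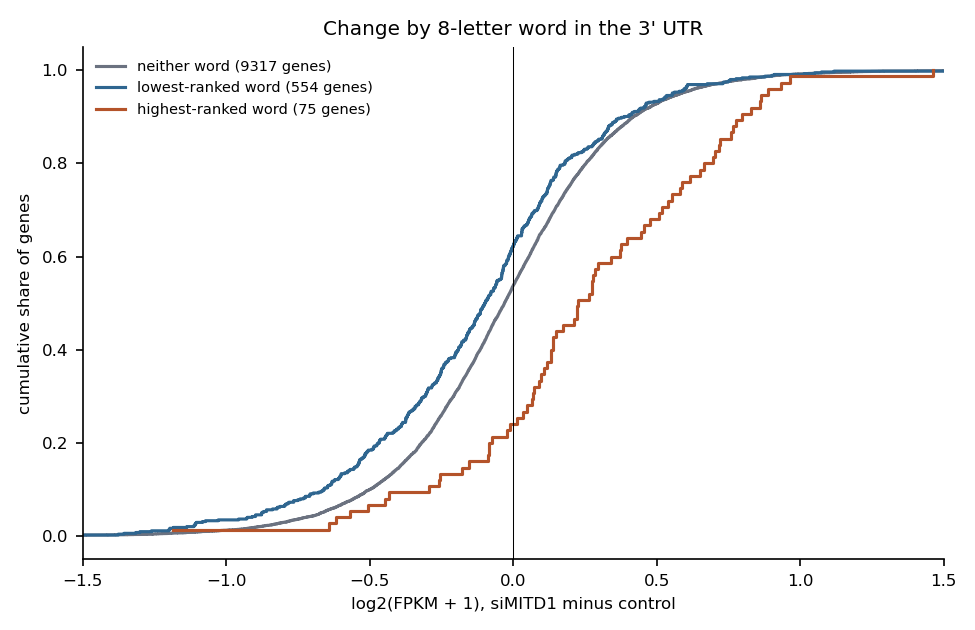
Cumulative share of genes (vertical) by log2(FPKM + 1) difference, siMITD1 minus control (horizontal), for genes with the lowest-ranked 8-letter word in the 3′ UTR (554, blue), with the highest-ranked (75, brown) and with neither (grey). The blue curve lies slightly left of the grey one, with a median of −0.098, and the brown curve right of it, with a median of 0.227.

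Of 11 motifs searched in these promoters, the AP-1 consensus TGANTCA was picked for its share among the strongest increases, so its counts are a description with no test. It was in 11 of 61 promoters of genes at least 2-fold higher (18%), beside 4.32% of all promoters, 4.52% of those of all genes called higher and 5.5% of those at least 2-fold lower. Genes with it included LUCAT1, a stress-induced long noncoding RNA (4.34 ± 0.586 to 21.1 ± 0.795 FPKM, log2 difference 2.05), PERP, a desmosome gene (1.28), TFPI2, a protease inhibitor (1.20), and F3 (1.17). An NF-kB consensus was in 42.2% of promoters of genes at least 2-fold lower beside 31.5% of all. Examples of the AP-1 word follow, with capitals for the word.
PERP (chr6:138107504-138107530, minus strand): gggcgcgctcTGAGTCAccggaatcta
TFPI2 (chr7:93890824-93890850, minus strand): tccccgtgcaTGAATCAgccacccctc
CPA4 (chr7:130293103-130293129, plus strand): tttgaggactTGAGTCActctcagact
The ATF4 consensus TTGCATCA was in 1 of 24 promoters of the ATF4 list (4.17%) beside 0.383% of all. That promoter was of CHAC1, which rose by 0.14. The HIF consensus ACGTG was in 9 of 24 of the HIF list (37.5%) beside 27.5% of all. Among promoters of genes at least 2-fold higher the ATF4 word was in 0 of 61 and the HIF word in 10 (16.4%).

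Identity markers of the line were retained with some shifts. The summed level of the 16 markers of clear cell carcinoma and 786-O was 944 to 967 FPKM in the controls and 1040 to 1060 FPKM in the knockdown, with LRP2 at 0; the renal lineage factors PAX8 (35.0 ± 0.544 to 18.7 ± 1.02 FPKM, log2 difference −0.88) and PAX2 (−0.43) fell, and VCAM1 rose by 0.60. Fibroblast markers summed to 6.53 to 7.61 and 6.17 to 7.09 FPKM, with COL1A2 and DCN at 0, endothelial markers to 10.4 to 10.7 and 5.46 to 7.06 FPKM, with ERG at 0, and blood cell markers to 4.35 to 5.09 and 1.21 to 1.72 FPKM, with 6 of 10 at 0 including CD3E, LYZ and HBB. Single genes made up most of the last 2 sums: EGFL7 went from 9.74 ± 0.34 to 5.41 ± 0.701 FPKM and LAPTM5 from 4.31 ± 0.48 to 1.31 ± 0.155 FPKM. Markers of an embryonic kidney line summed to 74.7 to 75.8 and 53.5 to 55.6 FPKM, with LIN28B at 0, and of these NEFL fell by 0.33.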

How the data were processed

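Library preparation used a directional kit on total RNA, per the labels' protocols. The deposited values are FPKM per gene symbol, made by the authors; the aligner, counting strand and scaling are not given in the sources used. The submitters' processing notes name mm10, a mouse build, yet all 58735 gene IDs of the RBCK1 table are human; coordinates are GRCh38. Genes with 1 FPKM or more in at least 3 of 6 libraries were fitted with limma 3.58.1 (trend, R 4.3.3) on log2(FPKM + 1), two-sided, with Benjamini-Hochberg adjustment. FPKM times gene length gave whole reads (tolerance 0.01) for 91.6% of 18083 genes above 0; library size sets the counting error. The table holds no mitochondrially encoded genes, and renamed symbols such as histones were not matched. Named genes were the axis, the 15 largest changes each way, up to 4 per list and all ESCRT-III, MIT and annexin members. The 15 were called genes with 5 FPKM or more in a group and groups apart. Clone, unnamed locus, antisense and pseudogene entries were left out of them. Others were named after their values were seen. The comparison, its members and 51 gene lists were chosen with earlier results of these data known. The fit was tested on simulated data. Value columns that name no sample (6) were not used. Alternatives were other pseudocounts, filters, scalings and tests, a replicate block, each library left out, and, added after seeing the data, leaving out genes with the 3′ UTR word. Some results are not reported here.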

Additional observations from a re-analysis of the deposited data

How the results depend on the processing

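The count of genes called stayed within 1.5 times of 6835 under all 16 alternatives, from 5084 with a minimum of 5 FPKM, which tests fewer genes, to 6864 with robust empirical Bayes. The count of genes changed at least 2-fold was 233; it was 490 with a pseudocount of 0.1, 485 with voom on recovered reads, both of which shrink low values less, and 153 without the genes whose 3′ UTR holds a part of TTCTTCAA, where fewer genes are counted. Leaving out 1 library at a time gave 6324 to 6432 calls, with 90.5% to 91.6% of the calls kept in the same direction. With quantile normalization 3412 genes were higher and 3399 lower, and with median ratio scaling 3416 and 3429, beside 3124 and 3711. The replicate number as a block gave 6859 calls, kept 97.1% of them in direction and changed the call of 1 of 298 named genes (CHMP2B, 0.14, then called higher); deviations of same-numbered libraries correlated at 0.10, 0.03 and −0.00, so the numbers are not shown to pair libraries. MITD1, ANXA1 and RBCK1 kept direction and call under each alternative that tested them. Of 298 named genes, S100A11 (0.09) turned to −0.02 with quantile normalization, the cause of which was not tested, and ANXA5, IST1, TSG101 and PSPH lost their call under at least 1 alternative. ANXA4, CHMP2A, CHMP2B, CHMP4C, ULK3 and VPS37B, not called, were called under at least 1. Genes near 0 that were not called changed sign: with quantile normalization LEMD2, VPS36 and VPS4B were at 0.02, and with median ratio scaling ANXA2 and LEMD2 were at 0.02, CHMP4B and VPS36 at 0.01 and VPS4B at 0.00. Leaving out 1 library at a time, CHMP4B ran from −0.05 to 0.03, CHMP5 from −0.01 to 0.02, LEMD2 from −0.03 to 0.02, VPS36 from −0.07 to 0.02, VPS37A from −0.03 to 0.07 and VPS4B from −0.05 to 0.00. Fold changes on the log2(FPKM + 1) scale understate low genes, and depth limits those near 1 FPKM.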

Other observations

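Classes of noncoding RNA differed in how often they were higher; these classes were chosen after their values were seen. Of 88 lincRNA genes tested 53 were higher (60.2%) and 6 lower (6.82%), with a median log2 difference of 0.40, beside 29.9% and 36.7% of 9942 protein-coding genes with a median of −0.03. Genes annotated as antisense were higher in 40 of 84 (47.6%) and lower in 7 (8.33%), with a median of 0.25, and processed transcripts in 15 and 3 of 27. Short RNA genes were not: miRNA genes were higher in 5 of 37 (13.5%, median −0.25) and snoRNA genes in 4 of 26 (15.4%, median 0.20). The sources used here do not give the counting strand, so antisense reads cannot be told apart from those of the overlapping gene. NORAD rose to 3.13 times and LUCAT1 to 4.86 times its control mean.

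Matrix genes changed member by member. Matrix proteases and inhibitors were higher in 11 of 21 (52.4%) and lower in 5 (23.8%): MMP24 rose from 12.9 ± 0.334 to 24.96 ± 0.761 FPKM (SD, n = 3 each), while MMP2, a gelatinase, fell from 141.7 ± 1.5 to 80.6 ± 1.3 FPKM and PLAT, tissue plasminogen activator, from 3.74 ± 0.114 to 0.548 ± 0.0702 FPKM (log2 difference −1.62). SPARC, a collagen-binding glycoprotein, fell from 288.6 ± 6.14 to 157.2 ± 2.51 FPKM and TNC, tenascin C, rose from 18.4 ± 0.504 to 36.0 ± 1.1 FPKM. Collagen IV and VI chains rose and fell: COL4A1 rose by 0.61 and COL6A3 by 0.74, and COL6A1 fell by 0.28. TPM4, a tropomyosin of the actin cytoskeleton, rose from 60.3 ± 2.16 to 161.3 ± 3.96 FPKM (log2 difference 1.41), and SERPINH1, the chaperone of procollagen, fell from 166.6 ± 2.11 to 71.97 ± 3.13 FPKM (−1.20).

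Of 27 proteasome subunits tested 12 were higher (44.4%), 2 lower (7.41%) and 13 not called, with a median of 0.09. PSMD14, a deubiquitinase of the lid, rose from 15.2 ± 0.553 to 22.6 ± 1.05 FPKM (log2 difference 0.55), PSMC3 by 0.42 and PSMB1 by 0.25, and PSMC4 fell by 0.44.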
